A study of Mus musculus with 2 samples.

Results

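This report covers 5 genes of the pluripotent cell, Dppa2, Dppa3, Dppa4, Dppa5a and Tcl1, which are 5 of the 32286 features counted in each of 2 droplet libraries from mouse cells, sequenced cell by cell. The genes were chosen by symbol, and each of the 5 symbols named exactly 1 feature. The study asked how Cnot8, a deadenylase subunit of the Ccr4-Not complex that shortens poly(A) tails, acts when naïve embryonic stem cells (ESCs) turn into formative epiblast-like cells (EpiLCs). One library held ICR-strain ESCs kept in serum/LIF medium on feeder cells (0 h), and the other held EpiLCs after 48 h in N2B27 with activin A, bFGF and 1% KSR on Matrigel (48h-EpiLCs). The paper describes EpiLC induction from ESCs in 2i/LIF medium (2 kinase inhibitors and LIF). The serum/LIF ESCs are therefore not shown to be the cells from which these EpiLCs were made. Each library was loaded with Cnot8 knockout (KO) cells and as many wild-type (WT) cells, marked by tdTomato from a ROSA mT/mG allele. The KO cells descend from embryos with a CRISPR/Cas9 deletion in Cnot8. The genotype label of both libraries reads wild type, whereas their titles name both lines, so the line of a cell was read from its transcripts.

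A cell was called WT when it held at least 1 unique molecular identifier (UMI) of tdTomato and 0 UMIs of the 4 Y-linked genes Ddx3y, Eif2s3y, Kdm5d and Uty. It was called KO when it held 0 tdTomato UMIs and at least 2 UMIs of those genes. Cells needed 1000 genes or more and no more than 10% of UMIs from mitochondrial transcripts. This gave 435 WT and 2978 KO cells of 11054 in the ESC library, and 368 WT and 2977 KO cells of 9400 in the 48h-EpiLC library. Most of the other cells (7559 and 5971) had too few UMIs of the deciding genes, and 82 and 84 cells held both kinds. The median depth was 13151 UMIs per WT cell and 13368 per KO cell in ESCs, and 15598 and 17628 in 48h-EpiLCs. Cells with a doublet score among the top 10% of their library made up 9.89% of WT and 16.3% of KO cells in ESCs, and 7.34% and 15.5% in 48h-EpiLCs. The libraries had 41 barcodes in common. Cnot8 RNA itself did not mark the lines, with 43.1 CPM (UMIs of a gene scaled to a common total) in WT and 72.1 CPM in KO ESCs, and with 49.7 CPM in WT and 62.6 CPM in KO 48h-EpiLCs. Pou5f1, which marks pluripotent cells, was present in all 4 classes at 75.5 to 109 CPM, and Fgf5, a formative marker, stood at 1.29 to 2.76 CPM in ESCs and 35.9 to 53.4 CPM in 48h-EpiLCs. There was 1 library per stage and 1 line per genotype. Therefore no test was possible, stage cannot be told apart from library, and genotype cannot be told apart from line or from the sex-linked transcripts that also differ. All intervals are exact 95% intervals and cover counting error only.

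The Dppa genes (developmental pluripotency associated) were named for transcripts shared by pluripotent cells of the embryo and in culture. Dppa2 and Dppa4 encode SAP-domain proteins that bind each other and chromatin, help to keep developmental promoters free of DNA methylation, and act upstream of the 2-cell programme in ESCs. Dppa3, also called Stella or PGC7, marks primordial germ cells, binds Uhrf1, protects the maternal genome from loss of DNA methylation in the zygote, and is patchy from cell to cell in serum/LIF ESCs. Dppa5a (Esg1) encodes a KH-domain RNA-binding protein of the same family as Khdc3 and Ooep. Tcl1 encodes a co-activator of the kinase Akt.

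Dppa4 and Dppa2 are neighbours on chromosome 16 of GRCm38, both on the forward strand. Dppa4 lies at chr16:48283733-48294237 with 7 exons and Dppa2 at chr16:48303908-48319723 with 8 exons, 9671 bases apart. Dppa3 lies at chr6:122626410-122630272 (forward strand, 4 exons), 16323 bases from Gdf3. Dppa5a lies at chr9:78367052-78368177 (reverse strand, 3 exons), 7932 bases from Ooep. Tcl1 lies at chr12:105216750-105222793 (reverse strand, 3 exons) beside the Tcl1b genes. No annotated gene overlapped any of the 5.

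The libraries count the 3′ ends of mRNAs, and Cnot8 acts on the poly(A) tail that follows the 3′ untranslated region (3′ UTR), so the 3′ UTRs of the GENCODE transcripts were searched for 3 short elements on the transcribed strand. These were the Pumilio element TGTANATA and the AU-rich pentamer ATTTA, which recruit regulators of mRNA decay, and the polyadenylation signal AATAAA. Only Dppa3, with a 3′ UTR of 267 bases, held a Pumilio element, 145 bases from the transcript end, and it also held 1 ATTTA. Among the last 267 bases of 15716 genes with a 3′ UTR at least as long, 8.90% held a Pumilio element and 42.5% held ATTTA. Tcl1 held 2 ATTTA pentamers in 653 bases, of which the second overlapped its AATAAA signal, and 67.2% of equally long windows held ATTTA. Dppa2 held 1 ATTTA in 1012 bases (79.6% of windows). Dppa4 (505 bases) and Dppa5a (184 bases) held neither element, and 59.9% and 33.9% of windows of those lengths held ATTTA. The polyadenylation signal was found 2 times each in Dppa3, Dppa5a and Tcl1 and not in the annotated 3′ UTRs of Dppa2 and Dppa4. The following sites are printed because the members' 3′ ends differ in them, with the element in capitals, and for Dppa3 and Dppa5a the signal nearer to the end is given.
Dppa3 Pumilio element: ctttaaatTGTAGATAggatgcac
Dppa3 AU-rich pentamer: acgatccagATTTAtgtgaagttt
Tcl1 first AU-rich pentamer: aggttctgtATTTAgtgtaaacac
Tcl1 second AU-rich pentamer: tacggctggATTTAataaagcttt
Dppa2 AU-rich pentamer: tgaatacagtgtATTTAccagtgt
Dppa3 polyadenylation signal: gaaatttgtAATAAAagcattttt
Dppa5a polyadenylation signal: taaataaaaAATAAAattgaagtg
A match of letters is a description, and no use of these sites was measured here.

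The last 300 bases of each transcript were also aligned to all GENCODE transcripts. Those of Dppa2, Dppa3, Dppa4 and Tcl1 aligned to no other gene. Those of Dppa5a aligned to 12 other genes, among them Pigp (95.6% identity over 294 bases), the non-coding A830035A12Rik (84.7% over 295 bases) and the unprocessed pseudogenes Dppa5b and Dppa5c (98.3% over 58 bases each). Dppa5a UMIs are therefore uncertain by whatever was exchanged with such copies. The level of Pigp was 41.9 CPM in WT and 88.5 CPM in KO ESCs, then 56.4 CPM in WT and 91.2 CPM in KO 48h-EpiLCs. Its part in the Dppa5a values was not tested.

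Levels (CPM) are UMIs of a gene summed over the cells of a class and divided by all UMIs of that class. Each mRNA molecule is counted once at its 3′ end, so levels were not divided by length, and differences in capture between 3′ ends are not corrected. Dppa5a was by far the most abundant member on this scale and Tcl1 or Dppa3 the least abundant in each class. Dppa5a reached 3035 CPM in WT ESCs (2991 to 3078), 2375 CPM in KO ESCs (2361 to 2390), 2118 CPM in WT 48h-EpiLCs (2082 to 2154) and 1793 CPM in KO 48h-EpiLCs (1782 to 1803). It ranked 47 among all features in WT ESCs and 103 in KO 48h-EpiLCs. The 4 intervals did not overlap, but they are narrow because they rest on 13173 to 106284 UMIs. The share of all features with intervals that separate in this way was not counted. Such separations, here and for the other members below, are therefore only a description.

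Dppa2 stood in the same order, at 276 CPM in WT ESCs (263 to 289), 240 CPM in KO ESCs (236 to 245), 198 CPM in WT 48h-EpiLCs (187 to 209) and 160 CPM in KO 48h-EpiLCs (157 to 163), again with no overlap. Its partner Dppa4 had 231 CPM in WT ESCs (219 to 243), 186 CPM in KO ESCs (182 to 190), 172 CPM in WT 48h-EpiLCs (162 to 183) and 182 CPM in KO 48h-EpiLCs (178 to 185). For Dppa4 only the WT ESCs stood apart, and the intervals of the other 3 classes overlapped. Dppa2 and Dppa4 thus had similar levels in every class but not the same order of classes.

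Dppa3 had 16.2 CPM in WT ESCs (13.2 to 19.8), 12.9 CPM in KO ESCs (11.8 to 13.98), 21.5 CPM in WT 48h-EpiLCs (18.1 to 25.5) and 48.4 CPM in KO 48h-EpiLCs (46.7 to 50.2). The KO 48h-EpiLCs stood above all other classes, whose intervals overlapped from neighbour to neighbour. Tcl1 had 12.8 CPM in WT ESCs (10.2 to 16.0), 15.1 CPM in KO ESCs (14.02 to 16.3), 0.965 CPM in WT 48h-EpiLCs (0.354 to 2.10) and 2.88 CPM in KO 48h-EpiLCs (2.47 to 3.35). The ESC classes overlapped, and both lay above both 48h-EpiLC classes. Tcl1 rested on 79, 668, 6 and 171 UMIs in these classes, against 100, 568, 134 and 2871 for Dppa3.

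**Figure D1:**
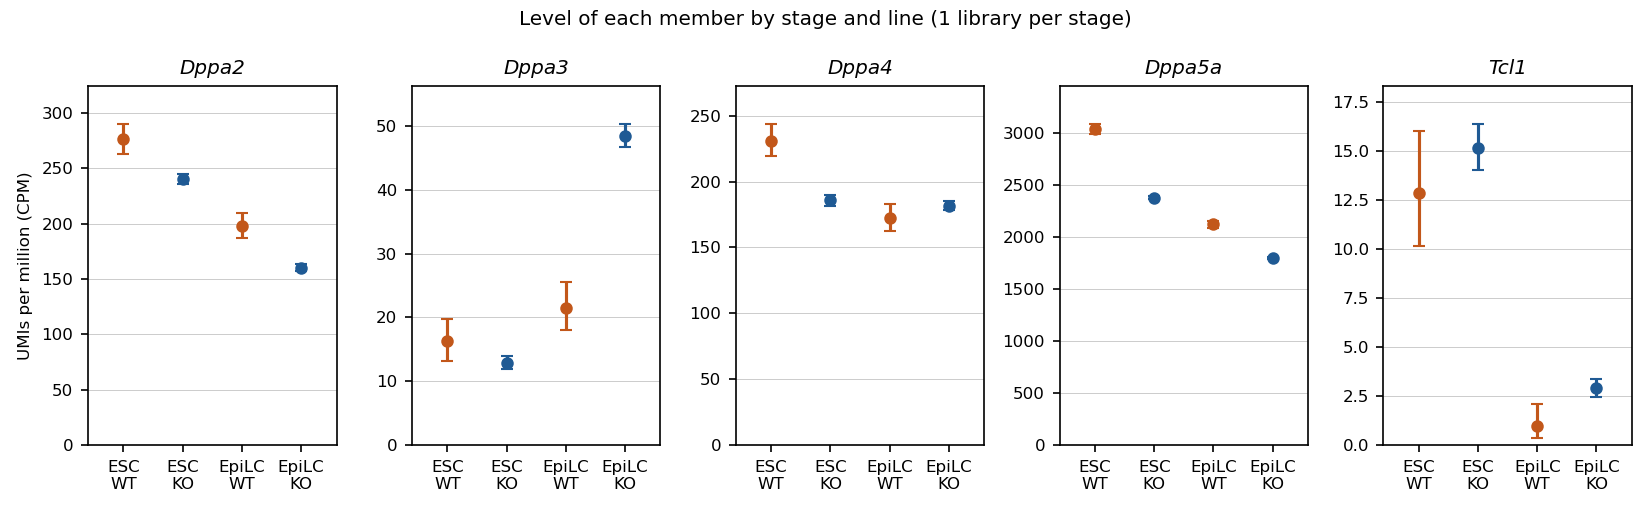
Level of each member in CPM (linear axes from 0, a scale of its own for each gene) in WT (orange) and Cnot8 KO (blue) cells of the ESC and 48h-EpiLC libraries, with exact 95% Poisson intervals for counting error. Dppa5a and Dppa2 step down from WT ESCs to KO 48h-EpiLCs, Dppa3 is highest in KO 48h-EpiLCs at 48.4 CPM, and Tcl1 is low in both 48h-EpiLC classes.

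In ESCs, the comparison of KO with WT cells asks whether the loss of Cnot8 goes with other levels in serum/LIF medium. The 4 Dppa genes were lower in KO cells by modest amounts, and Tcl1 could not be placed on either side of 0. The log2 ratio of KO over WT was -0.35 for Dppa5a (-0.38 to -0.33), -0.32 for Dppa4 (-0.40 to -0.23), -0.34 for Dppa3 (-0.64 to -0.01), -0.20 for Dppa2 (-0.27 to -0.12) and 0.24 for Tcl1 (-0.10 to 0.59). The median over the 5 members was -0.32, against 0.13 over the 9277 genes with a mean of at least 5 CPM. At a 2-fold difference or more stood 0 of the 5 members and 6.24% of those genes. The KO class also held more RNA of fibroblast markers, the source of which was not tested. The 8 fibroblast markers summed to 89.7 CPM in KO and 15.4 CPM in WT ESCs, and 1 of the 8 was at 0 in WT cells. With cells of clusters resembling other cell types left out, the log2 ratios were -0.33 for Dppa5a, -0.28 for Dppa4, -0.39 for Dppa3 and -0.16 for Dppa2.

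In 48h-EpiLCs, Dppa3 stood out. Its level in KO cells was 2.25 times that in WT cells (1.89 to 2.69), a log2 ratio of 1.17 (0.92 to 1.43) that lay above 98.2% of the 9385 genes with a mean of at least 5 CPM. Dppa5a (-0.24, from -0.27 to -0.21) and Dppa2 (-0.31, from -0.39 to -0.22) were lower in KO cells on the log2 scale, and Dppa4 had a log2 ratio of 0.08 with an interval that held 0 (-0.01 to 0.17). Tcl1 had a log2 ratio of 1.58 on very few UMIs (0.43 to 3.05) and lay under the minimum of 5 CPM. Of the 4 members above that minimum, 1 stood at 2-fold or more, beside 4.02% of all such genes, whose median was 0.08. Fibroblast markers summed to 31.5 CPM in KO and 8.68 CPM in WT 48h-EpiLCs, with 3 of 8 at 0 in WT cells, and 2-cell markers to 3.85 and 1.61 CPM, with 3 of 8 at 0. Without cells of clusters resembling other types, the log2 ratio of Dppa3 was 1.14.

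The difference between the stages in the log2 ratio of KO over WT was 1.504 for Dppa3, 1.34 for Tcl1, 0.39 for Dppa4, 0.11 for Dppa5a and -0.11 for Dppa2 (48h-EpiLC minus ESC). For Dppa3 the counting interval lay below 0 in ESCs, where it ended at -0.01, and above 0 in 48h-EpiLCs. Dppa3 UMIs in KO ESCs varied more between cells than by random sampling, which the interval does not cover. With classes taken from clusters, the ESC ratio of Dppa3 was -0.03. With 1 library per stage, none of the differences between the stages could be tested.

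Between the serum/LIF ESC library and the 48h-EpiLC library, Tcl1 had the largest difference of the members in both lines. Its log2 ratio of 48h-EpiLC over ESC was -3.73 in WT (-5.22 to -2.55) and -2.39 in KO cells (-2.64 to -2.15), below all but 0.314% and 0.749% of genes. Dppa2 (-0.48 in WT and -0.59 in KO) and Dppa5a (-0.52 and -0.41) were lower in 48h-EpiLCs of both lines. Dppa4 was lower in WT (-0.42, from -0.54 to -0.31) and not separable from 0 in KO cells (-0.03, from -0.07 to 0.01). Dppa3 was higher, by 0.41 in WT (0.02 to 0.80) and by 1.91 in KO cells (1.78 to 2.04), which is 3.76-fold. In WT, 1 of 5 members (Tcl1) was at 2-fold or more, beside 10.9% of 9242 genes. In KO cells it was 2 of 5 (Tcl1 and Dppa3), beside 7.71% of 9478 genes. The WT and KO comparisons use different cells of the same libraries, and each ESC class also serves as a side of the ESC comparison of the lines.

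**Figure D2:**
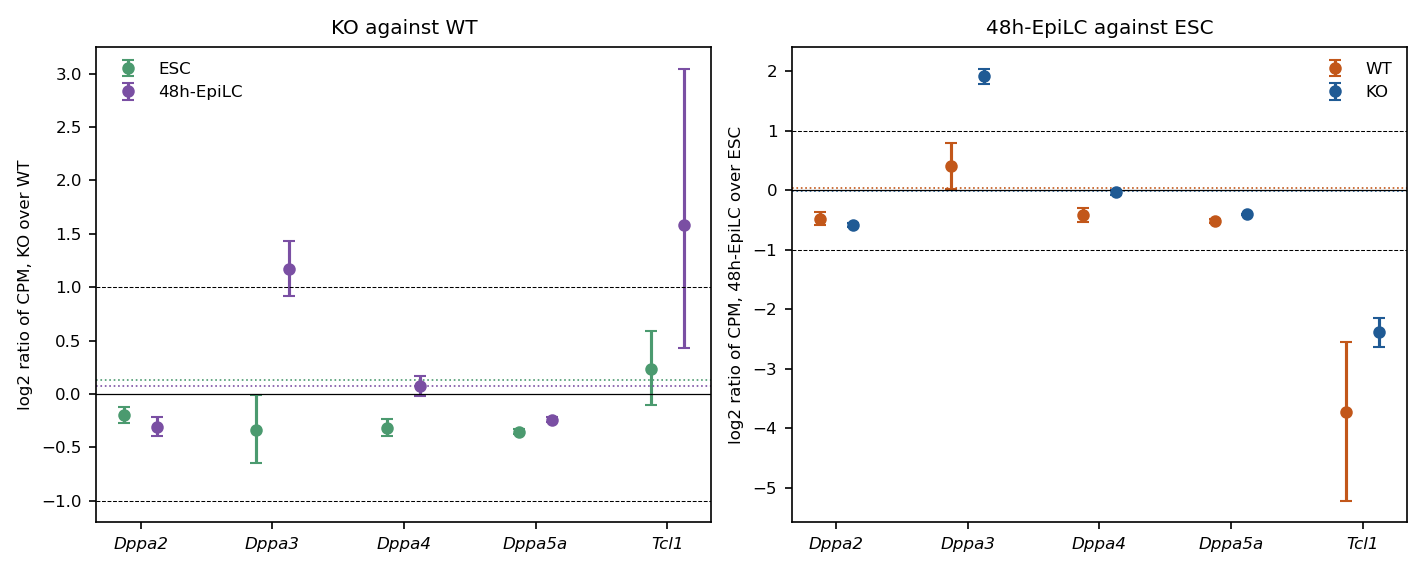
Log2 ratio of CPM with exact 95% binomial intervals for counting error, KO over WT in each stage (left) and 48h-EpiLC over ESC in each line (right). Dotted lines give the median of all genes with a mean of at least 5 CPM, and dashed lines mark 2-fold. Dppa3 in 48h-EpiLCs (1.17) and Tcl1 (1.58, with a wide interval) lie past 2-fold on the left, and Tcl1 in both lines and Dppa3 in KO cells on the right.

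The other pluripotency genes give the setting. Of 15 naïve genes that passed the 5 CPM minimum, 13 were at least 2-fold lower in 48h-EpiLCs in WT and 13 in KO cells, with medians of -2.95 and -2.31 on the log2 scale. Tcl1 was among the members the one with a change of that size, whereas Dppa2, Dppa4 and Dppa5a had log2 ratios between -0.59 and -0.03, nearer to the 5 core pluripotency genes, whose medians were -0.41 in WT and -0.54 in KO cells. Of 11 formative genes, 6 were at least 2-fold higher in WT and 5 in KO cells, and 1 was 2-fold lower in KO cells. In the comparison of KO with WT 48h-EpiLCs, 3 of 12 naïve genes were at least 2-fold higher in KO cells and 0 lower. These were the transcription factors Zfp42 (37.5 CPM in WT and 97.1 CPM in KO cells), Klf2 (37.5 and 93.1 CPM) and Esrrb (3.54 and 11.3 CPM). The imprint-protecting Zfp57 had 20.4 and 40.7 CPM, just under 2-fold. Other naïve genes had log2 ratios below 0, namely the growth factor gene Fgf4 (-0.89), Klf4 (-0.79), Nanog (-0.67), Gbx2 (-0.52) and Fbxo15 (-0.33). In ESCs 0 of 15 were 2-fold higher and 1 was lower, Fgf4 with 143 CPM in WT and 65.3 CPM in KO cells.

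Dppa3 is also a germ cell gene, so its level was set beside 15 germ cell genes. In 48h-EpiLCs, 6 of the 12 that passed the minimum were at least 2-fold higher in KO cells and 0 lower, with a median log2 ratio of 0.69. Tex19.1, a germline protein that limits retrotransposons, had 81.4 CPM in WT and 180 CPM in KO cells (log2 ratio 1.15, from 1.02 to 1.28). In ESCs, 3 of 12 were at least 2-fold higher in KO cells, with a median of 0.47, while Dppa3 itself was not higher there. The 2-cell genes downstream of Dppa2 and Dppa4 were scarce. None of the 14 counted passed the minimum in any comparison, and their summed level was 13.97 CPM in WT and 8.16 CPM in KO ESCs, and 3.38 and 12.1 CPM in 48h-EpiLCs.

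The genes next to the members in the genome did not share one pattern. Near Dppa3 on chromosome 6, Nanog was lower in KO cells of both stages (84.5 and 56.1 CPM in ESCs, 27.5 and 17.2 CPM in 48h-EpiLCs, WT first), and the glucose transporter gene Slc2a3 likewise (235 and 140 CPM, then 198 and 85.1 CPM). Gdf3, a TGF-β family ligand, had log2 ratios of KO over WT of -0.25 in ESCs and 0.08 in 48h-EpiLCs. The editing enzyme gene Apobec1, at low level, was higher in KO 48h-EpiLCs, with 2.57 CPM in WT and 7.88 CPM in KO cells (log2 ratio 1.61, from 0.90 to 2.43). Apobec1 was thus the neighbour of Dppa3 with a ratio on the same side. Morc1, which silences retrotransposons and lies near Dppa2 and Dppa4, had 234 CPM in WT and 91.7 CPM in KO ESCs, and 29.3 and 17.6 CPM in 48h-EpiLCs. Over the 16 neighbours listed, 8 passed the minimum in 48h-EpiLCs, of which 2 were at least 2-fold higher and 1 lower in KO cells. In ESCs 7 passed, of which 0 were higher and 1 lower.

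Ooep and Khdc3, which belong to the subcortical maternal complex of the oocyte and lie beside Dppa5a, differed from it. Khdc3 had 55.9 CPM in WT and 94.7 CPM in KO ESCs, and 1.29 and 10.1 CPM in 48h-EpiLCs, a log2 ratio of KO over WT of 2.97 (1.98 to 4.19) in the latter. Ooep had 84.0 and 89.4 CPM in ESCs, and 27.3 and 46.4 CPM in 48h-EpiLCs (log2 ratio 0.76, from 0.54 to 1.00). Dppa5a had ratios below 0 at both stages. Of the 13 family members listed, 3 passed the minimum in each comparison. The 5 Tcl1b genes beside Tcl1 had 0 UMIs in all 4 classes (exact upper limit 0.599 CPM in the shallowest, WT ESCs), and Dicer1, on the same chromosome, was level at 49.2 to 54.1 CPM in all 4 classes.

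The known partners of the proteins stayed within 2-fold between the lines. Uhrf1, the DNA methylation cofactor bound by Dppa3, had 191 CPM in WT and 241 CPM in KO ESCs, and 137 and 196 CPM in 48h-EpiLCs (log2 ratios 0.34 and 0.52). The maintenance methyltransferase gene Dnmt1 had log2 ratios of -0.12 and 0.12. The demethylation enzyme gene Tet1 had 0.03 and 0.42, and Tet3, the zygotic member, had -0.82 in 48h-EpiLCs at 8.18 CPM in KO cells. Akt1, partner of Tcl1, had 13.5 CPM in WT and 26.7 CPM in KO ESCs (log2 ratio 0.98) and a log2 ratio of 0.10 in 48h-EpiLCs, and Akt2 had 0.28 and 0.43. Of the 7 partners that passed the minimum, 0 were at 2-fold or more between the lines in either stage.

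To count the cells in which each member was found, cells were thinned to 5000 UMIs each and the share with at least 1 UMI was counted. This left out 1 WT and 23 KO ESCs, and 1 WT and 9 KO 48h-EpiLCs. A Dppa3 UMI was found in 7.37% of WT ESCs (5.10 to 10.2), 4.70% of KO ESCs (3.97 to 5.53), 7.90% of WT 48h-EpiLCs (5.36 to 11.2) and 18.3% of KO 48h-EpiLCs (16.9 to 19.7). The share in KO 48h-EpiLCs lay above the intervals of the other 3 classes. Unthinned, a Dppa3 UMI was found in 17.7% of WT and 13.7% of KO ESCs, and in 92 of 368 WT and 45.4% of KO 48h-EpiLCs. Fibroblast-like cells of the ESC library, which should lack the gene, had 2.62% (1.14 to 5.10, n = 305, median depth 10484 UMIs before thinning), an interval that overlaps those of KO and, at its edge, WT ESCs. Tcl1 was found in 5.53% of WT and 7.31% of KO ESCs, and in 1.09% and 1.52% of WT and KO 48h-EpiLCs. The 48h-EpiLC shares lay below the 3.93% of the fibroblast-like cells and cannot be read against a background of their own, since those cells come from the other library. The fibroblast-like interval (2.05 to 6.77) also overlapped those of WT ESCs (3.57 to 8.12) and KO ESCs (6.40 to 8.31). For neither gene does such an overlap place the ESCs at background, since the fibroblast-like cells held the other members as well.

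Dppa2 was found in 69.6% of WT and 67.9% of KO ESCs and in 62.7% and 53.0% of 48h-EpiLCs, and Dppa4 in 66.1%, 59.6%, 55.3% and 59.9%. Dppa5a was found in 98.9% to 100% of the cells of each class. The fibroblast-like cluster was no clean background for any member. Dppa2, Dppa4 and Dppa5a were found in 30.5%, 28.2% and 75.1% of its cells, and 1.48% of its cells held tdTomato. It had 6.28 CPM of Dppa3 and 7.46 CPM of Tcl1, and the source of these UMIs was not tested. Its pooled Dppa5a level was 1237 CPM, against 1958 to 3209 CPM in the ESC clusters assigned to a line. Its median was 3 Dppa5a UMIs per unthinned cell, against 10 to 37 in those clusters, so the pooled level does not describe its typical cell.

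In KO 48h-EpiLCs the Dppa3 UMIs were spread over many cells, though less evenly than by random sampling alone. Of the thinned cells 81.7% held none, against 77.3% under such sampling. Of 2968 thinned cells, 404 held 1 UMI, 87 held 2 and 51 held 3 or more, whereas of 367 WT cells 26 held 1, 3 held 2 and none held more. Before thinning, 115 of 2977 KO cells (3.86%) and 2 of 368 WT cells (0.543%) held 5 or more Dppa3 UMIs, with 27.8% and 9.70% of the UMIs of their class. In KO ESCs the UMIs were concentrated. One cell, of the 2-cell-like cluster, held 47 of the 568 Dppa3 UMIs of the class (8.27%) among 8728 UMIs in all, and the next cell held 13. The richest cells of WT ESCs (4 UMIs) and KO 48h-EpiLCs (27 UMIs) also belonged to 2-cell-like clusters. The top 1% of cells carried 26.2% of the Dppa3 UMIs there, against 10.9% in KO 48h-EpiLCs. Without the cell with the most Dppa3 UMIs in each class, the log2 ratio of KO over WT was -0.41 in ESCs and 1.23 in 48h-EpiLCs.

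The Fano factor, the variance of UMIs over their mean, would be 1 for random sampling alone. For Dppa3 it was 5.89 in KO ESCs, where the 1 cell above weighs on it, 1.04 in WT ESCs, 1.10 in WT 48h-EpiLCs and 1.71 in KO 48h-EpiLCs. The median over all genes was 1.01 to 1.03 in the 4 classes, with a 95th percentile of 1.17 to 1.26. Dppa3 lay above that percentile in KO ESCs (5.89 against 1.26) and in KO 48h-EpiLCs (1.71 against 1.17), and under it in both WT classes. Dppa5a had 2.57 to 3.66, highest in KO 48h-EpiLCs, and its high level makes any spread visible. Dppa4 (1.04 to 1.14) and Tcl1 (0.992 to 1.07) lay under the 95th percentile in every class. Dppa2 (0.955 to 1.24) lay just under it in WT ESCs and, at 1.17, in KO 48h-EpiLCs. The groups have different numbers of cells, and no test was made.

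**Figure D3:**
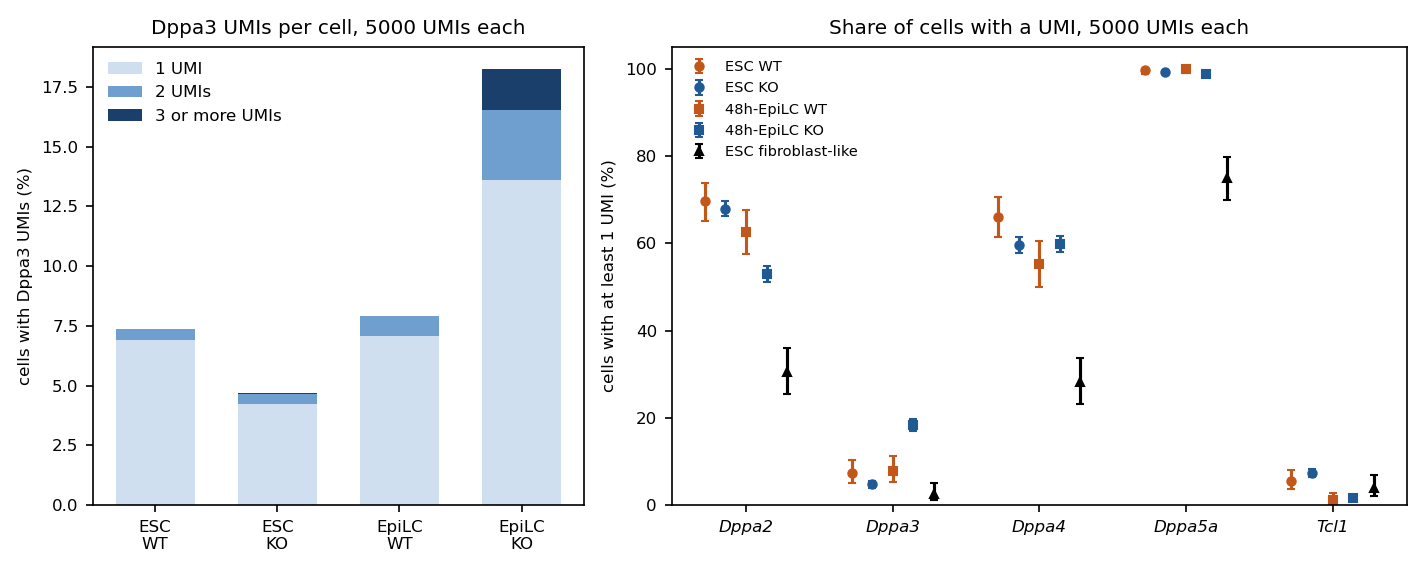
Left, share of cells (%) with 1, 2 or at least 3 Dppa3 UMIs after thinning each cell to 5000 UMIs. Right, share of cells (%) with at least 1 UMI of each member in WT (orange) and KO (blue) cells of ESC (circles) and 48h-EpiLC (squares) and in fibroblast-like ESC-library cells (black triangles), with exact 95% binomial intervals. Dppa3 is found in 18.3% of KO 48h-EpiLCs and in at most 7.90% of the other line classes.

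Members were only weakly related from cell to cell. Over the 10 pairs in each class, Pearson's r of log2(UMIs + 1) ranged from -0.13 (Dppa2 and Dppa5a in 367 WT 48h-EpiLCs) to 0.13 (Dppa3 and Tcl1 in 434 WT ESCs). In counts this sparse, such values are no finding. Dppa2 and Dppa4, whose proteins bind each other, had r of 0.03 to 0.07 in the 4 classes and were found together in 32.2% to 47.9% of cells.

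The thinned cells were also split by a UMI of the naïve gene Zfp42. In KO 48h-EpiLCs, the 995 cells with a Zfp42 UMI had 2002 CPM of Dppa5a against 1635 CPM in the other 1973, a log2 ratio of 0.29 (0.26 to 0.33), and 184 against 152 CPM of Dppa2 (0.27, from 0.15 to 0.39). In KO ESCs Dppa4 had 196 against 147 CPM (0.41, from 0.22 to 0.60). In WT ESCs Dppa5a had 3094 CPM on both sides of the Zfp42 split. Dppa3 went the other way in ESCs. It had 10.2 CPM with and 28.2 CPM without a Zfp42 UMI in KO ESCs (log2 ratio -1.46, from -1.95 to -0.95), but 10.2 against 10.6 CPM (-0.05) once the 1 cell with 30 Dppa3 UMIs was left out. In WT ESCs it had 12.0 against 23.9 CPM (-0.99, from -2.05 to 0.07) on 18 and 16 UMIs. Split by Nanog, Dppa5a was higher in the cells with a UMI in KO 48h-EpiLCs (2332 against 1711 CPM), KO ESCs (2530 against 2296 CPM) and WT ESCs (3373 against 2971 CPM), and 2068 against 2061 CPM in WT 48h-EpiLCs. Split by the formative gene Fgf5, Dppa5a was lower in the cells with a UMI in KO 48h-EpiLCs (1514 against 1802 CPM). Dppa3 in KO 48h-EpiLCs had 75.9 against 49.5 CPM when split by Nanog (log2 ratio 0.62, from 0.27 to 0.94) and 36.4 against 54.2 CPM when split by Fgf5 (-0.58, from -0.92 to -0.24). In WT 48h-EpiLCs the Fgf5 split gave Dppa3 31.3 against 13.4 CPM, the other direction, on 13 and 19 UMIs.

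The 542 KO 48h-EpiLCs with a Dppa3 UMI were also set beside the 2426 without. Dppa5a had 1988 against 1707 CPM (log2 ratio 0.22, from 0.18 to 0.26) and Nanog 25.8 against 15.5 CPM (0.74, from 0.32 to 1.14). The lists as a whole did not follow Nanog. The 6 naïve genes with at least 20 CPM ranged from -0.41 for Zfp57 to the 0.74 of Nanog with a median of -0.0044, and the 9 formative genes ranged from -0.42 for Tcf15 to 0.14 for Foxd3 with a median of -0.08, against a median of -0.0041 over 5651 genes. Dppa2 (-0.07, from -0.22 to 0.09) and Dppa4 (-0.01, from -0.16 to 0.13) had log2 ratios with intervals that held 0.

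The cells were also clustered within each library with the members left out of the features, and members were read in the resulting 21 clusters of at least 50 cells. Clusters were assigned to WT or KO by their share of cells with tdTomato. Both 2-cell-like clusters, of 66 ESC-library and 56 48h-EpiLC-library cells with leading genes such as Zscan4d, had the highest Dppa2 and Dppa3 levels of their library. Dppa2 reached 557 and 642 CPM there, against at most 297 and 264 CPM in the other clusters. Dppa3 reached 117 and 283 CPM, against at most 17.5 and 55.5 CPM. In the ESC library 1 KO cell held 47 of the 94 Dppa3 UMIs of this cluster, and in the 48h-EpiLC library 1 KO cell held 27 of 234. The median was 0 Dppa3 UMIs per cell in both 2-cell-like clusters. Dppa4, Dppa5a and Tcl1 did not stand out there. Dppa4 had 194 and 178 CPM, Dppa5a 3005 and 2172 CPM, and Tcl1 12.4 and 3.63 CPM, all within the range of the other clusters. These clusters were small, and each is 1 group of cells of 1 library.

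In 48h-EpiLCs the Dppa3 level also differed between WT clusters. It was 15.2 CPM in the largest WT cluster (2167 cells), 11.3 CPM in the next (1051 cells, led by the low-oxygen response genes Adm and Bnip3 among others) and 55.5 CPM in the smallest (589 cells, led by H19, Krt8, Klhl13 and Ifitm1). That smallest WT cluster lay as high as the 2 large KO clusters, with 52.6 CPM (2466 cells) and 46.9 CPM (2058 cells), and it also had the most Dppa5a of its library, 3393 CPM. A raised Dppa3 level was thus not confined to KO cells. Of the KO clusters, the one led by Zfp42 and Khdc3 (2058 cells) had more Tcl1 (4.59 against 1.63 CPM), Dppa5a (2091 against 1428 CPM), Dppa4 (204 against 167 CPM) and Dppa2 (192 against 132 CPM) than the largest one. With classes taken from clusters, 4858 KO and 3807 WT cells, the log2 ratio of KO over WT for Dppa3 was 1.27.

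In ESCs the clusters assigned to WT and KO did not overlap for Dppa4 (228 to 241 CPM in 2 WT clusters and 159 to 194 CPM in 5 KO clusters) or for Dppa5a (2935 to 3209 and 1958 to 2558 CPM). They overlapped for Dppa2, Dppa3 and Tcl1. The share of all genes whose clusters did not overlap in this way was not counted, so the separation is only a description. The lowest Dppa4 and Dppa5a levels among KO clusters came from 1 shallow cluster led by mt-Nd3 (153 cells, median 5243 UMIs). Dppa3 was 17.1 CPM in the KO cluster led by Lefty1 and Lefty2, targets of Nodal signalling, and 6.68 to 14.9 CPM in the other KO clusters. With classes from clusters, its log2 ratio in ESCs was -0.03, so the lower Dppa3 of KO ESCs was not seen with those classes. The primitive-endoderm-like cluster (218 cells, led by Gata6, Pdgfra and Sox17) had 143 CPM of Dppa4 and 1937 CPM of Dppa5a, the lowest after the fibroblast-like cluster, and 251 CPM of Dppa2, within their range.

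**Figure D4:**
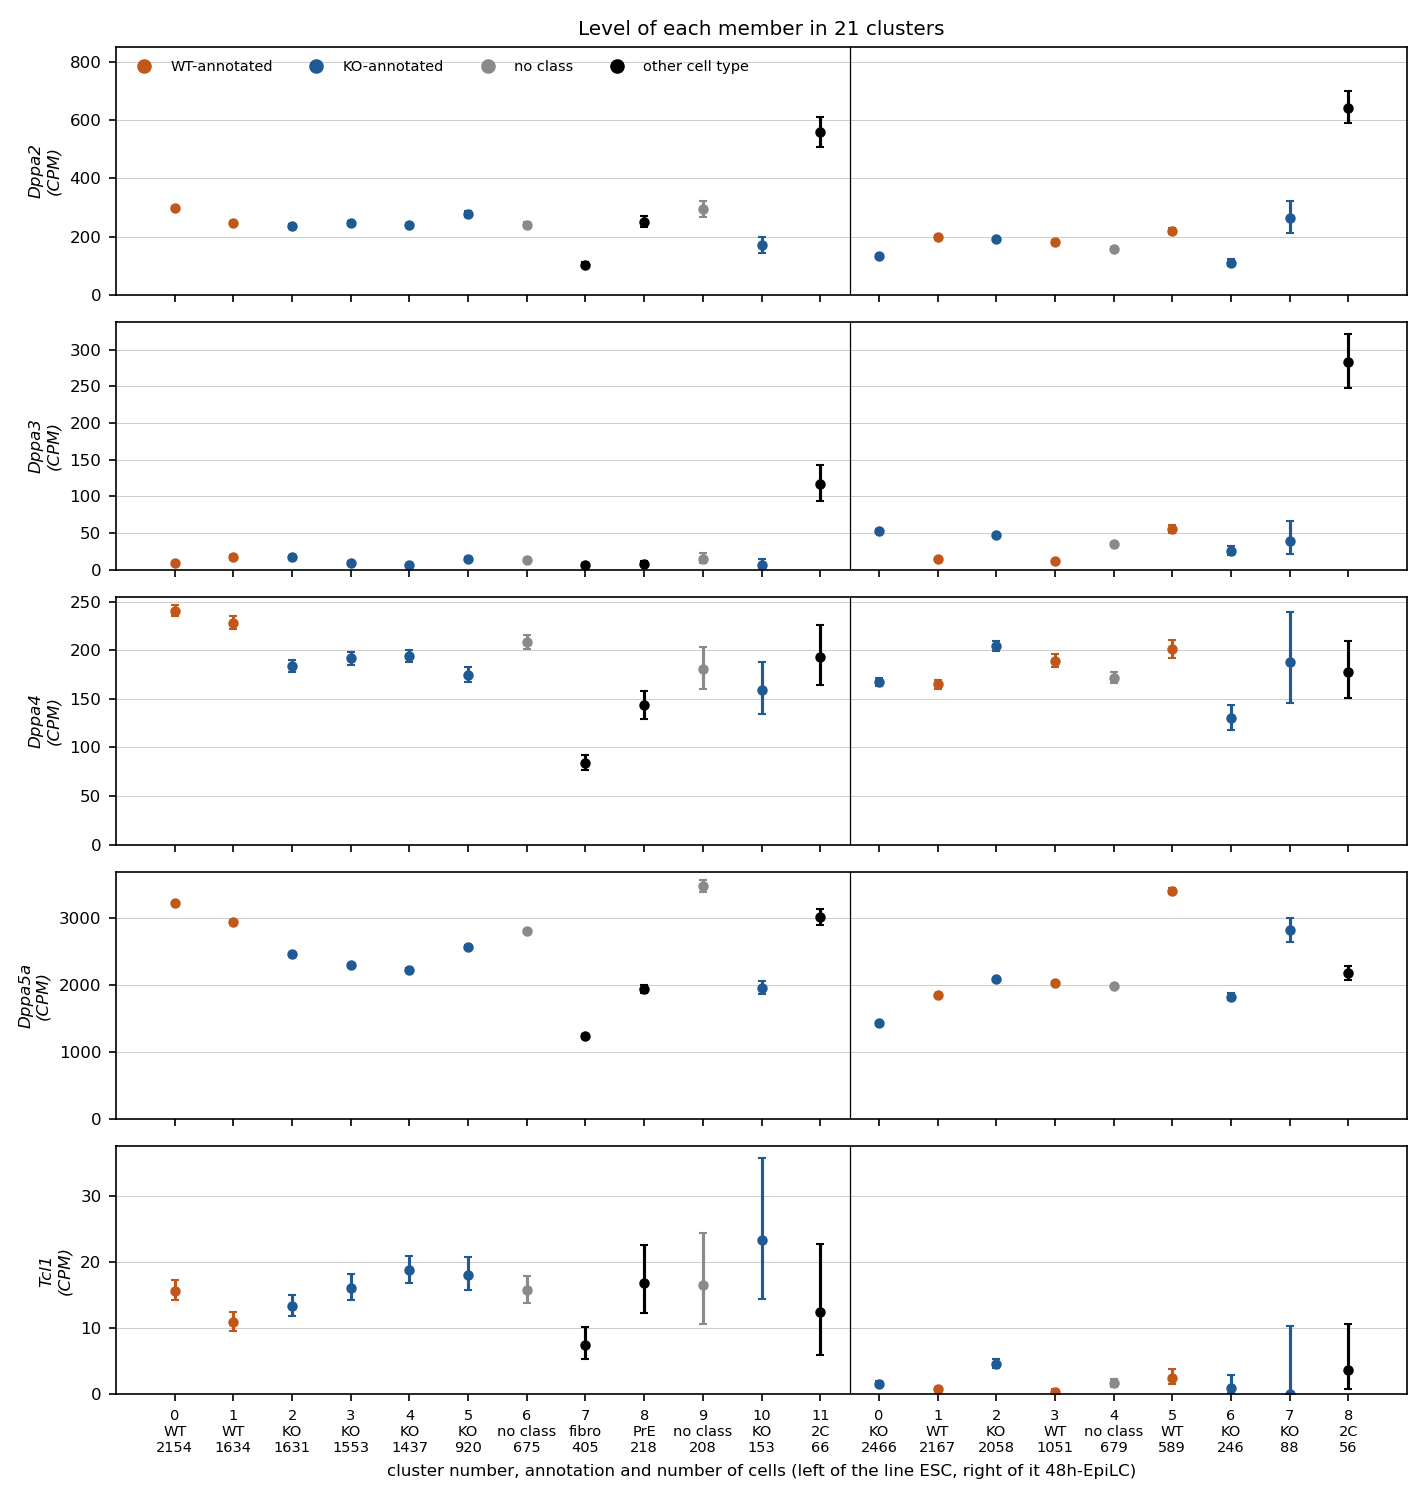
Level of each member in CPM (linear axes from 0) in the 21 clusters of at least 50 cells, with exact 95% Poisson intervals for counting error, for WT-annotated (orange), KO-annotated (blue), other cell type (black: fibro, fibroblast-like, PrE, primitive-endoderm-like, 2C, 2-cell-like) and further clusters (grey). Dppa2 and Dppa3 peak in both 2-cell-like clusters, and Tcl1 separates the stages. Of the 94 Dppa3 UMIs in the ESC 2-cell-like cluster, 47 came from 1 cell.

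Across the 21 clusters, the genes most like each member were ranked by Pearson's r of log2(CPM + 1) among 7938 other genes with at least 20 CPM in some cluster. Clusters of 1 library share its depth and stage, so r is given only as a description. Tcl1 was most like Lifr, the LIF receptor (r = 0.97), Erf, an ETS repressor downstream of ERK (0.95), and Gm14820 (0.95). Within the 12 ESC clusters these values were 0.64, 0.78 and 0.48, and within the 9 48h-EpiLC clusters 0.86, 0.78 and 0.88. Dppa3 was most like Rbp7 (0.92), Pcdh8 (0.92) and Pdlim3 (0.89). These had 0.91, 0.87 and 0.96 within the ESC clusters, and 0.89, 0.88 and 0.72 within the 48h-EpiLC clusters. Among the genes most like Dppa2 were Pdcl (0.86) and Clp1 (0.85), an RNA kinase. Within the ESC clusters they had 0.83 and 0.84, and within the 48h-EpiLC clusters 0.90 and 0.85. Dppa2 and Dppa3 were far highest in the 2-cell-like cluster of each library, and r without those clusters was not computed. Dppa4 was most like the cohesin acetyltransferase gene Esco2 (0.89), Clns1a (0.86) and Ccdc18 (0.86). Within the libraries, Clns1a had 0.95 in ESC and 0.37 in 48h-EpiLC clusters and Ccdc18 0.92 and 0.47, so their likeness lay mostly in the ESC library, while Esco2 had 0.95 and 0.81. Dppa5a was most like Thoc6 (0.79), Csrp2 (0.78) and Ifitm1 (0.77). No member was among the 3 genes most like another.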

How the data were processed

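The values used were UMI counts per gene and cell barcode as the authors deposited them, made with Cell Ranger 3.0.2 and an mm10 reference to which tdTomato had been added, and analysed by the authors with Seurat 4, which was not used here. The counts were whole numbers, and no correction for free RNA is stated. Total deposited counts were 144584246 UMIs over 13184 barcodes (ESC) and 163771168 UMIs over 12427 barcodes (48h-EpiLC). Files of gene identifiers and barcodes served only as names.

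The members, gene lists and cell classes were chosen with earlier results of these data known. Named were the 5 members, tdTomato, Cnot8 and the 4 Y-linked genes, neighbours, family and partner genes with at least 5 CPM in some class, up to 4 genes per list and library with the largest KO to WT ratio at a mean of 20 CPM or more, and the 3 genes most like each member, of which 1 is not reported here. Counts of 5 or fewer and the ends of ranges were named after their values were seen.

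UMIs were summed per class and divided by the class total. Intervals are Poisson for levels, binomial for ratios (conditional on both counts) and Clopper-Pearson for shares. A class at 0 was set to 3 counts in the all-gene ratios. Cells with high doublet scores (own score with 2 simulated doublets per cell, top 10% per library) were kept in the main values and left out in an alternative. Clusters were made by the Leiden method (leidenalg 0.10.2, resolution 1) on a graph of 15 neighbours over 30 principal components of the 2000 most variable genes, without the members. A cluster was called fibroblast-like, primitive-endoderm-like or 2-cell-like when at least 3 markers reached 20 CPM and 4 times the other cells, and WT or KO when its share of cells with tdTomato was at least 0.5 or at most 0.2 of the highest share. On Poisson counts simulated for KO against WT 48h-EpiLCs (9430 genes), 99.5% of 200 genes changed 4-fold passed 2-fold and 95.5% of intervals held the truth. The intervals assume such counts too, so this checks the calculation only. It cannot show how the intervals perform with the added spread between real cells. TMM factors came from edgeR 4.0.16, used for scaling only. Gene models were GENCODE M21 (GRCm38), in which 32158 features matched by identifier. Whether reads were counted by strand is not given in the sources used here. Protein and promoter sequences of the members were not used here.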

Additional observations from a re-analysis of the deposited data

Results flagged for a closer look

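The log2 ratio of KO over WT for Dppa3 lay below 0 in ESCs and above 0 in 48h-EpiLCs, with intervals for counting error on opposite sides of 0, and the difference between the stages was 1.504 on the log2 scale. The ESC interval ended at -0.01 and does not cover the spread of Dppa3 between KO ESCs, so the side of 0 is uncertain there. The difference between the stages was not tested, since each stage was 1 library. With classes taken from clusters the ESC ratio was -0.03 and the 48h-EpiLC ratio 1.27.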

How the results depend on the processing

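The numbers of members at 2-fold or more (0 in ESCs and 2 in 48h-EpiLCs for KO against WT, 1 in WT and 2 in KO cells for 48h-EpiLC against ESC, Tcl1 included) were the same under 11 alternatives of cell filter, doublets, other cell types, class assignment, scaling, cell weight and depth. The exception came with 1 CPM added to both classes, where 1 member, Dppa3, was left in KO against WT 48h-EpiLCs, because Tcl1 then had a log2 ratio of 0.98. Of 240 member ratios under planned and added alternatives, 215 stayed inside their counting interval, 25 moved outside it, and 0 reversed among those whose interval excluded 0. Dppa3 in 48h-EpiLCs ranged from 1.08 to 1.48, the highest in cells of middling depth, and in ESCs from -0.48 to -0.03. Dppa4 in KO cells, whose stage ratio was not separable from 0, changed sign to 0.01 with TMM scaling. The KO minus WT share of 48h-EpiLCs with a Dppa3 UMI was 10.4 percentage points at 5000 UMIs per cell, 6.63 at 3000 UMIs and 20.4 without thinning. The share of all genes at 2-fold or more depended on the minimum level. It was 12.4%, 8.51%, 18.5% and 13.0% in the 4 comparisons at 1 CPM, and 3.37%, 2.22%, 6.88% and 5.20% at 20 CPM. The alternative without the cell richest in each member was chosen after seeing the data. In KO ESCs it took the log2 ratio of Dppa3 between cells with and without a Zfp42 UMI from -1.46 to -0.05, and with and without a Nanog UMI from 0.96 to 0.03. No paired analysis was possible because each group was 1 library and the labels give no replicate numbers. Tcl1 in WT 48h-EpiLCs rested on 6 UMIs, so its ratios are limited by depth.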
